A study of Mus musculus with 17 samples.

Results

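The GFRA1-negative stage of adult mouse spermatogonia, called GFRA1neg here, was set against the 2 adult populations on either side of it, GFRA1pos and KITpos. Its level in each gene was compared with the average of both neighbours, each given a weight of 50%, and then with each neighbour separately, so that transcripts peaking or dipping at this stage could be told from those that change at 1 step only. The comparison used 13 of the 17 libraries of the series, 4 of GFRA1neg, 4 of GFRA1pos and 5 of KITpos. The other 4, neonatal gonocytes (TERT and OCT4-GFP positive, postnatal day 6), entered only the shared fit.

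All 13 libraries came from adult Tert-Tomato/+ mice, which carry a fluorescent reporter of the telomerase gene Tert, on a mixed B6/J and B6/N background. Cells were sorted as TERT-High in every adult group. GFRA1pos cells were GFRa1+ and Kit-, GFRA1neg cells were GFRa1- and Kit-, and KITpos cells were Kit+, with no GFRa1 gate named for them. The reporter allele and the TERT-High gate were therefore common to all 3 groups, and spermatogonia outside that gate were not sampled. The labels do not say which libraries came from separate animals, so p-values measure the spread between these libraries, which may be technical in part.

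Spermatogonial stem cells renew the germ line of the testis. They carry GFRA1, the co-receptor through which the niche factor GDNF signals with RET, and they give rise to progenitors that lose GFRA1, gain the transcription factor NEUROG3 and the retinoic acid receptor RARG, and are primed to differentiate. Retinoic acid then induces STRA8 and the receptor tyrosine kinase KIT, and the cells enter a series of rapid divisions. GFRA1neg cells lie between these states, and the question was which transcripts mark the middle rather than either end.

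Levels are given as CPM, the counts scaled to a common library total after TMM scaling (deposited totals 5178352 to 12641907). Differences are log2 fold changes ± SE from edgeR's quasi-likelihood test over 15451 genes, with Benjamini-Hochberg adjusted p called under 0.05. A peak is a gene called higher in GFRA1neg than in GFRA1pos, higher than in KITpos and higher than their average, and a dip is a gene called lower in all 3 tests. Means are given ± SD over the libraries of a group (4 of GFRA1neg, 4 of GFRA1pos and 5 of KITpos), and every gene said to peak or dip passed all 3 tests. The tests against the 2 neighbours share the GFRA1neg libraries and are not independent.

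The libraries matched their labels. Gfra1, a gene of the sort, was at 18.6, 25.6, 21.7 and 25.4 CPM in GFRA1neg, 394, 385, 425 and 355 in GFRA1pos and 0.8401, 7.19, 5.71, 3.24 and 6.58 in KITpos. Kit was at 24.2, 49.3, 18.5 and 18.5 CPM in GFRA1neg, 12.6, 20.8, 17.01 and 20.2 in GFRA1pos and 266, 453, 401, 347 and 296 in KITpos. The germ cell genes Ddx4 and Dazl were present in every adult library, at means of 166 and 408 CPM in GFRA1neg. Zbtb16 (PLZF) and Sall4, which mark undifferentiated spermatogonia, had GFRA1neg means of 404 and 465 CPM, against 39.3 and 134 in KITpos. Ret, Etv5 and Id4, which accompany Gfra1 in stem cells, were lower in GFRA1neg than in GFRA1pos, with differences of -1.41 ± 0.23, -3.67 ± 0.33 and -1.39 ± 0.29. Tert itself, whose reporter gated every group, had a mean of 11.3 CPM in GFRA1neg, 7.25 in GFRA1pos and 7.54 in KITpos, and its difference from the average of both (0.61 ± 0.26, adjusted p = 0.096) did not pass. Without GFRA1pos replicate 1, the highest of its group at 12.3 CPM, that Tert difference was 0.80 (adjusted p = 0.0183).

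Markers of other cells were present, those of later germ cells at the highest sums. Summed spermatid markers (16 genes tested) ran from 678 to 2870 CPM in GFRA1neg, 167 to 2750 in GFRA1pos and 700 to 2130 in KITpos, so the ranges overlapped. GFRA1neg replicate 2, GFRA1pos replicates 2 and 4 and KITpos replicate 1 were the highest 4 libraries. Some of the counts below, not all, are also given without them. Summed spermatocyte markers (14 genes tested) ran from 646 to 2450 CPM in GFRA1neg, 246 to 1200 in GFRA1pos and 435 to 1000 in KITpos. GFRA1neg replicate 2 was the lowest GFRA1neg library in 68% of the 565 peak genes, against 36.9% of all genes tested. The part of these transcripts in the results was not tested beyond leaving those libraries out. In sorted populations, fewer cells of a type and less RNA per cell cannot be told apart.

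The promoters below belong to 3 genes that dipped, Rrm2, Mcm6 and Ccnb1, and to Neurog3, a peak gene, and are shown because DNA replication and mitosis had the highest shares of dips among the lists examined. Each is the 250 bases before the gene's start in the RefSeq table for GRCm38.p6, written 5′ to 3′ on the gene's strand. Capitals mark CCAAT or TTCGCG on either strand (ATTGG and CGCGAA on the other), the CCAAT box and a core of E2F sites.

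Rrm2, chr12:24708004-24708253, plus strand: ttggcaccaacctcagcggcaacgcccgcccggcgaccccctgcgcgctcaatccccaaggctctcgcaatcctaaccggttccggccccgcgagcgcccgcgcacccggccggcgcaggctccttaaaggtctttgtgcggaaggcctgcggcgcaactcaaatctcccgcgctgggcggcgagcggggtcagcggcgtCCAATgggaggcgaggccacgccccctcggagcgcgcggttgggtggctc

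Mcm6, chr1:128359706-128359955, minus strand: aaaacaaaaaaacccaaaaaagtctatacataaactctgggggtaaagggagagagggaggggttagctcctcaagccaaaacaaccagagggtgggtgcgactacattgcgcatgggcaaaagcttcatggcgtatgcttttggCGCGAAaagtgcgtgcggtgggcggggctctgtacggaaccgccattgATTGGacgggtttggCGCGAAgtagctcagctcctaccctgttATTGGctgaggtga

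Ccnb1, chr13:100786487-100786736, minus strand: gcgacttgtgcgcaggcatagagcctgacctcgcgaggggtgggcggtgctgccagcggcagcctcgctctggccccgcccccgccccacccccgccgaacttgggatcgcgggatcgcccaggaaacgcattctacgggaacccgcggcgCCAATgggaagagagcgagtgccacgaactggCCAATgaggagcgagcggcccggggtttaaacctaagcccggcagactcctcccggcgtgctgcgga

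Neurog3, chr10:62132840-62133089, plus strand: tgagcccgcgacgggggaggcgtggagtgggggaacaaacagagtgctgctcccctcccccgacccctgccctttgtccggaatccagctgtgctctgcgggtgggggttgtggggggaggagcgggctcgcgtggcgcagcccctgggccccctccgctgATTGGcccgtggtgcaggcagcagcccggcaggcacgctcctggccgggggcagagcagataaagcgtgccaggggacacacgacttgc

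A CCAAT box stood in 50.5% of the 315 dip promoters and in 32.9% of the 450 peak promoters found in that table, against 37.1% of 12164 promoters of all genes tested. Within the replication and mitosis lists the share was 64.5% of 31 dip genes and 67.5% of 40 genes that neither peaked nor dipped. TTCGCG was found in 6 of those 31 dip genes (19.4%) and 2 of the 40 others (5.0%). It was found in 10.2% of all dip promoters, 6.22% of peak promoters and 6.1% of all promoters. Mcm6 held 2 TTCGCG matches and 2 CCAAT boxes in its window, Ccnb1 held 2 CCAAT boxes, and Rrm2 and Neurog3 each held 1. Other motifs were counted too. In the same 31 and 40 genes TATAAA was in 3 and 0, AGGTCA in 5 and 3, CAGCTG in 1 and 5 and TGACGT in 2 and 6. Shares within those lists rest on few genes. All these shares are descriptions, and a match is not a bound site.

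Against the average of its neighbours, GFRA1neg was higher in 2288 genes (14.8% of 15451) and lower in 1949 (12.6%). In a fit to the 13 adult libraries alone these counts were 1844 and 2100, so which was larger depended on the fit. They were 1709 and 1458 without the 4 libraries high in spermatid markers. Most of the 2288 and 1949 genes differed from 1 neighbour only. Of the 2288 higher genes, 1512 were called above KITpos and not against GFRA1pos, 137 above GFRA1pos and not against KITpos, and 565 above both. Of the 1949 lower genes, 1308 were called below KITpos alone, 211 below GFRA1pos alone and 388 below both. The comparison with KITpos alone called 3550 genes higher (23%) and 3419 lower (22.1%), and that with GFRA1pos alone called 1057 higher (6.84%) and 1128 lower (7.3%). A steady course through the middle was called for 298 genes that were below GFRA1pos and above KITpos, and for 132 that were above GFRA1pos and below KITpos.

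**Figure D1:**
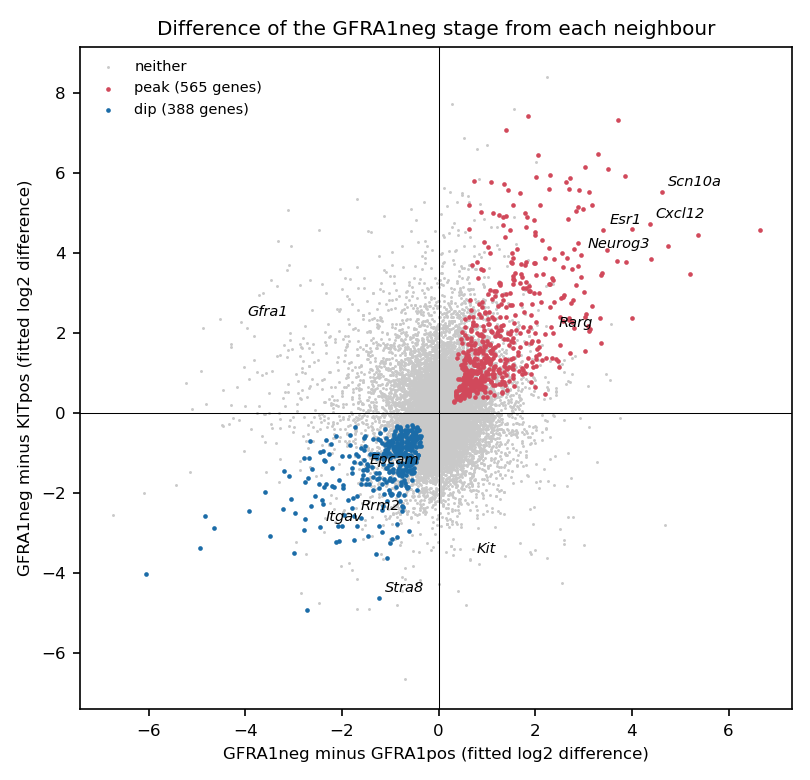
Each point is 1 of the 15451 genes tested, with its fitted log2 difference of GFRA1neg from GFRA1pos on the horizontal axis and from KITpos on the vertical axis. Peak genes (red, 565) lie at the upper right and dip genes (blue, 388) at the lower left, while Gfra1 and Kit lie in the other quadrants.

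The 565 peak genes were 3.66% of those tested and the 388 dip genes 2.51%. In the fit to the 13 adult libraries alone 379 peaks and 393 dips were called, and 388 and 414 without GFRA1pos replicate 4. Whether peaks or dips were more frequent therefore depended on the fit. Peaks were the larger: the smaller of the 2 neighbour differences had a median of 0.942 (log2) in peaks and 0.758 in dips, and it was above 1 in 263 peaks (1.7% of genes tested) and 119 dips (0.77%), or 77 dips without GFRA1neg replicate 4. In 461 of the 565 peaks every GFRA1neg library was above every library of both neighbours, and in 283 of the 388 dips every one was below. Over all genes tested, 4.75% had all GFRA1neg libraries above both neighbours and 2.83% below. Peaks differed more from KITpos than from GFRA1pos in 380 genes, and dips in 231. Without the 4 libraries high in spermatid markers, 15861 genes were tested. Of these 288 peaked, 262 of them among the 565, and 248 dipped, 224 of them among the 388. In edgeR's test against a 1.5-fold threshold, 155 peaks and 58 dips were called among 15451 genes. List counts in these settings below are to be set beside these totals, not beside 3.66% and 2.51%.

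Of 19 listed genes of the primed progenitor, 8 peaked in GFRA1neg, 11 did neither and none dipped, against 3.66% and 2.51% of all genes tested. The median difference from the average of both neighbours was 1.811 (log2), against 0.008 for all genes. It was 0.71 from GFRA1pos and 2.247 from KITpos. This list holds 2 of the genes given as markers of the stage, so its count is no independent evidence. Without the 4 spermatid-high libraries 7 of the 19 peaked, and 7 in edgeR's test against a 1.5-fold threshold.

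Neurog3, the basic helix-loop-helix factor of primed progenitors, was at 37.5, 28.1, 46.9 and 44.6 CPM in GFRA1neg, 5.41, 3.42, 6.94 and 4.56 in GFRA1pos and 4.34, 3.59, 2.205, 1.88 and 0.346 in KITpos. No GFRA1neg library came near either neighbour, and the difference was 2.95 ± 0.39 from GFRA1pos and 3.95 ± 0.38 from KITpos, or 7.71-fold and 15.5-fold (adjusted p = 3.61e-05 and 1.30e-07). Rarg, the retinoic acid receptor through which primed cells respond, was at 49.3, 31.3, 47.1 and 48.3 CPM in GFRA1neg, 6.48, 8.39, 12.2 and 7.18 in GFRA1pos and 10.8, 13.5, 12.6, 8.53 and 10.05 in KITpos. It was about as low in KITpos as in GFRA1pos, and the differences of GFRA1neg were 2.36 ± 0.23 and 1.98 ± 0.21. Cxcl12, the chemokine that attracts CXCR4-bearing cells, was at 40.6, 25.4, 53.6 and 50.3 CPM in GFRA1neg, 1.86, 0.976, 3.42 and 1.94 in GFRA1pos and 1.82, 0.928, 2.33, 2.56 and 0.346 in KITpos. Its GFRA1neg libraries were 20.6-fold over GFRA1pos and 26.4-fold over KITpos (log2 4.37 ± 0.42 and 4.72 ± 0.41, adjusted p = 1.07e-06 and 3.29e-08).

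The other 6 primed genes included transcription and RNA regulators of germ cells. Sox3, an HMG-box factor needed for spermatogonial differentiation, was at 25.8, 23.03, 30.96 and 35.7 CPM in GFRA1neg, 7.27, 6.54, 9.26 and 9.96 in GFRA1pos and 2.24, 6.61, 3.24, 2.56 and 1.56 in KITpos. All 4 GFRA1neg values lay above the rest. Nanos3, an RNA-binding regulator of germ cell survival, was at 17.2, 12, 15.4 and 21.1 CPM in GFRA1neg, 5.41, 6.83, 4.13 and 6.16 in GFRA1pos and 1.68, 1.74, 1.82, 2.73 and 0.866 in KITpos, again without overlap. Lin28a, which binds let-7 precursors, was far more abundant, with means of 688 ± 128 CPM in GFRA1neg, 305 ± 40.5 in GFRA1pos and 90.8 ± 13.4 in KITpos. Foxo1, the forkhead factor of spermatogonial maintenance, had means of 637 ± 131 CPM in GFRA1neg, 389 ± 61.1 in GFRA1pos and 122 ± 23.7 in KITpos and differed from GFRA1pos by 0.71 ± 0.18, a call lost without the 4 spermatid-high libraries (adjusted p = 0.0505). Upp1, a uridine phosphorylase, was at 82.7, 68.3, 83.4 and 106 CPM in GFRA1neg, 12.7, 15.6, 20.1 and 16.8 in GFRA1pos and 3.64, 14.1, 4.15, 2.39 and 4.504 in KITpos, and KITpos replicate 2 was the highest of its group. Ddit4 (REDD1), an inhibitor of mTORC1, was at 23.7, 18.2, 30.6 and 34.8 CPM in GFRA1neg, 3.64, 2.34, 4.83 and 4.14 in GFRA1pos and 1.26, 0.5798, 0.519, 0.682 and 1.04 in KITpos. GFRA1neg overlapped neither neighbour in any of these 6 genes, and GFRA1pos lay above KITpos in the mean of each. Ddit4 was also among the largest peaks, which were chosen for having no overlap. Among listed genes that did not peak, Glis3, a zinc finger factor of early spermatogonia, was at 205 CPM against 248 in GFRA1pos and 12.6 in KITpos, and passed only against KITpos (4.01 ± 0.20).

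**Figure D2:**
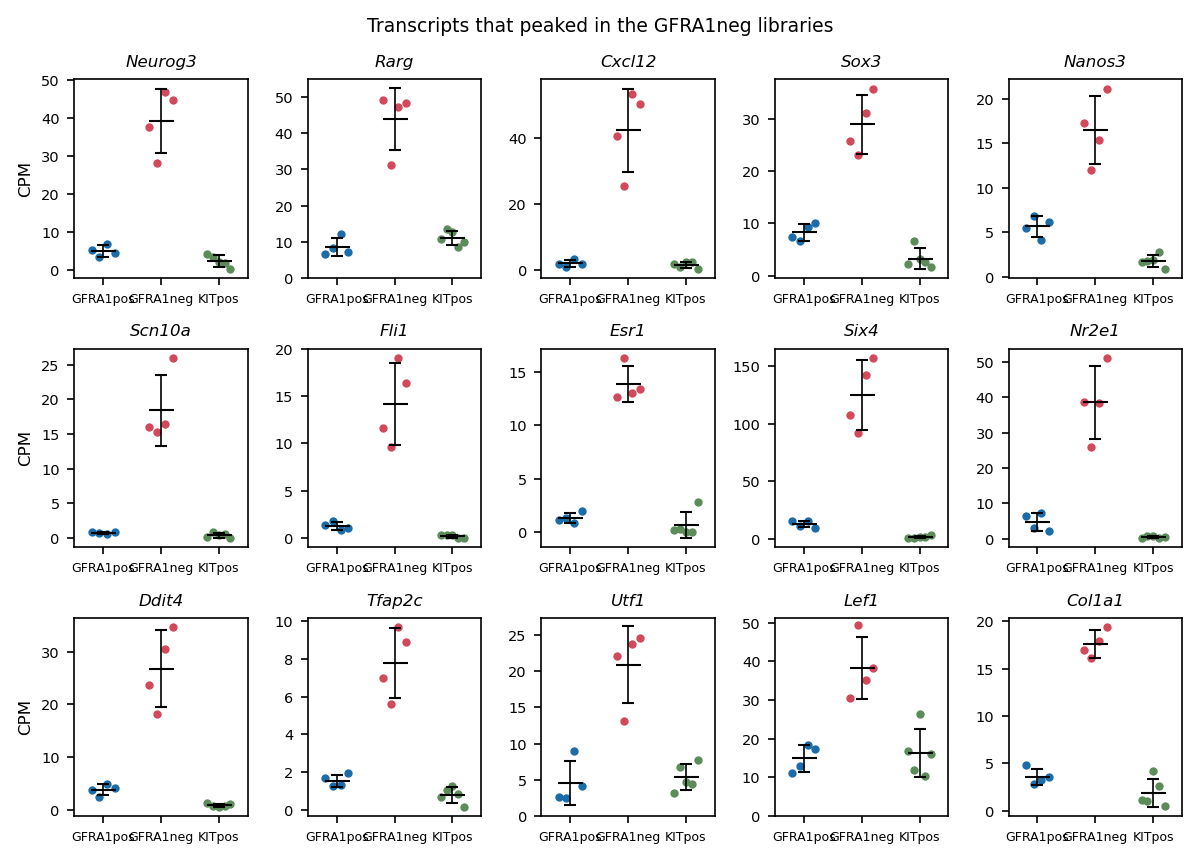
CPM in each library (points) for 15 peak genes in GFRA1pos (blue), GFRA1neg (red) and KITpos (green), with the mean and SD in black. In each panel the 4 GFRA1neg libraries lie above every neighbour library.

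The largest peaks with at least 10 CPM, chosen among peaks without overlap between GFRA1neg and either neighbour, had varied roles. Scn10a, a voltage-gated sodium channel of sensory neurons, led them at 15.99, 15.3, 16.4 and 26.1 CPM in GFRA1neg, 0.887, 0.683, 0.503 and 0.844 in GFRA1pos and 0.1400, 0.812, 0.389, 0.512 and 0 in KITpos. Its differences were 4.63 ± 0.44 and 5.52 ± 0.45, with GFRA1neg replicate 4 above the other 3. Fli1, an ETS factor of blood and vessel cells, was at 11.7, 9.596, 19.06 and 16.4 CPM in GFRA1neg, 1.33, 1.76, 0.805 and 1.01 in GFRA1pos and 0.2800, 0.348, 0.259, 0 and 0 in KITpos, with 2 KITpos libraries at 0. Esr1, the estrogen receptor alpha, was at 12.7, 16.4, 13.1 and 13.4 CPM in GFRA1neg, 1.15, 1.27, 0.805 and 1.94 in GFRA1pos and 0.1400, 0.232, 0, 0 and 2.77 in KITpos. One KITpos library, replicate 5, held most of the Esr1 counts of its group, and without it the difference from KITpos was 6.92 in place of 4.56. Mobp, first known from myelin, was at 23.7, 13.8, 19.9 and 28.2 CPM in GFRA1neg, 0.266, 0.781, 1.11 and 0.169 in GFRA1pos and 1.82, 2.44, 2.07, 2.39 and 0.866 in KITpos.

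Other large peaks followed. Six4, a SIX-family homeobox factor, was at 108, 92.1, 143 and 158 CPM in GFRA1neg, 14.99, 11.3, 15.4 and 9.29 in GFRA1pos and 0.7001, 0.928, 1.17, 1.71 and 2.77 in KITpos, a 9.802-fold difference from GFRA1pos and an 88.9-fold difference from KITpos. Nr2e1 (TLX), a nuclear receptor known from neural stem cells, was at 38.8, 25.8, 38.4 and 51.2 CPM in GFRA1neg, 6.39, 3.03, 7.35 and 2.03 in GFRA1pos and 0.2800, 0.812, 0.778, 0.171 and 0.5197 in KITpos. Onecut2, a cut-homeobox factor, had means of 36.4 ± 5.26 CPM in GFRA1neg, 4.896 ± 1.295 in GFRA1pos and 1.88 ± 0.945 in KITpos. The membrane protein gene Tmem63c had means of 63.9 ± 7.25 CPM in GFRA1neg, 8.01 ± 1.43 in GFRA1pos and 1.87 ± 0.645 in KITpos, and Igfbp6, which binds insulin-like growth factors, of 19.6 ± 2.35 CPM in GFRA1neg, 2.58 ± 1.01 in GFRA1pos and 0.407 ± 0.324 in KITpos. The transporters Abca13 and Abcd2, of which Abcd2 acts in peroxisomes, had GFRA1neg means of 10.9 and 15.9 CPM and means at or under 2.28 CPM in both neighbours. Cd34, a sialomucin of blood progenitors and vessels, was at 22.2, 16.6, 18.3 and 20.6 CPM in GFRA1neg, 1.33, 2.73, 5.03 and 1.69 in GFRA1pos and 2.94, 3.01, 0.389, 1.02 and 3.12 in KITpos. These genes too were chosen among peaks without overlap.

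Across 435 genes of transcription factor families, 40 peaked (9.2%) and 10 dipped (2.3%), against 3.66% and 2.51% of all genes tested. The median difference was 0.195 from the average of both neighbours, 0.088 from GFRA1pos and 0.368 from KITpos. The matching of symbols also caught Lin28a, which binds RNA. Without the spermatid-high libraries 29 of 434 peaked, and 20 peaked in edgeR's test against a 1.5-fold threshold. Over all genes tested, 288 of 15861 and 155 of 15451 peaked in these settings. Beside Six4, Hoxb3 peaked (13.7 ± 4.82 CPM in GFRA1neg, 2.66 ± 1.44 in GFRA1pos and 1.32 ± 1.02 in KITpos). Among 362 zinc finger genes with Zfp symbols the shares were lower, at 8 peaks (2.21%) and 3 dips (0.829%).

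Of 24 genes of pluripotency and primordial germ cells, 5 peaked (20.8%) and none dipped, against 3.66% and 2.51% of all genes tested. The median difference from the average of both neighbours was 0.616. It was 0.006 from GFRA1pos and 0.88 from KITpos, so the list's median lay above KITpos and about level with GFRA1pos. Tfap2c, the AP-2 factor of primordial germ cells, was at 6.96, 5.598, 9.71 and 8.88 CPM in GFRA1neg, 1.69, 1.27, 1.31 and 1.94 in GFRA1pos and 0.7001, 1.04, 1.297, 0.853 and 0.173 in KITpos. Utf1, a chromatin-bound factor of undifferentiated cells, was at 22.1, 13.1, 23.8 and 24.6 CPM in GFRA1neg, 2.66, 2.54, 8.96 and 4.14 in GFRA1pos and 3.22, 6.73, 4.67, 4.43 and 7.795 in KITpos, and the GFRA1pos values spread the most. Sall1, a zinc finger factor, had means of 111 ± 20.5 CPM in GFRA1neg, 31.9 ± 5.08 in GFRA1pos and 8.53 ± 3.05 in KITpos. Nanos3 and Lin28a, given above, were the other members. Without the spermatid-high libraries 6 of 24 peaked, and 5 in edgeR's test against a 1.5-fold threshold.

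The mTORC1 and FOXO list, which holds regulators of growth signalling and targets of forkhead factors, had 8 peaks and no dips among 35 genes. The peaks were 22.9% of the list, against 3.66% of all genes tested. The list's median difference was 0.472 from the average of both neighbours, 0.176 from GFRA1pos and 0.71 from KITpos. Beside Ddit4 and Foxo1, Bcl6, a transcriptional repressor, was at 48.9, 35.5, 47.6 and 58.8 CPM in GFRA1neg, 16.7, 11.8, 17.4 and 16.3 in GFRA1pos and 2.24, 4.06, 3.76, 0.682 and 2.94 in KITpos. Fbxo32 (atrogin-1), a ubiquitin ligase induced by forkhead factors in muscle, was at 87.3, 51.5, 90.6 and 117 CPM in GFRA1neg, 37.5, 22.3, 31.3 and 31.1 in GFRA1pos and 6.301, 10.4, 7.26, 5.46 and 1.73 in KITpos. Both were intermediate in GFRA1pos and lowest in KITpos, without overlap with GFRA1neg. Rragd, a Rag GTPase of the lysosome, was high in both kit-negative groups (155 ± 27.2 CPM in GFRA1neg, 92.9 ± 19.8 in GFRA1pos and 10.3 ± 4.62 in KITpos), and its difference from GFRA1pos, 0.74 ± 0.26, did not pass (adjusted p = 0.0593). That Rragd difference passed with DESeq2 (0.71, adjusted p = 0.0363), with the replicate block (0.73, adjusted p = 0.0227) and in 5 of the 13 fits with 1 library left out (adjusted p = 0.0213 to 0.0499). Without the spermatid-high libraries 4 of the 35 peaked, and 3 in edgeR's test against a 1.5-fold threshold. Over all genes tested, 288 of 15861 and 155 of 15451 peaked in these settings.

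The piRNA pathway, which silences transposons in germ cells through PIWI proteins and their Tudor-domain partners, had 8 peaks and no dips among 27 genes, with a median of 0.389. These peaks were 29.6% of the list, against 3.66% of all genes tested, and were small. None was called a peak in edgeR's test against a 1.5-fold threshold, where 155 of 15451 genes tested were. Mov10l1, the helicase that starts piRNA processing, was at 976, 671, 1054 and 1007 CPM in GFRA1neg, 589.6, 545, 626 and 514 in GFRA1pos and 412, 523, 453, 389 and 488 in KITpos, higher by 0.70 ± 0.14 than GFRA1pos and by 1.03 ± 0.13 than KITpos. Tdrd5, a Tudor-domain scaffold, was at 167, 161, 159.9 and 169 CPM in GFRA1neg, 98.4, 85.01, 97.9 and 98.6 in GFRA1pos and 50.8, 47.5, 43.8, 32.4 and 29.4 in KITpos. The GFRA1neg libraries overlapped neither neighbour in these 2 genes. Tdrd1, another Tudor protein, had means of 756 ± 90.9 CPM in GFRA1neg, 496 ± 48.3 in GFRA1pos and 232 ± 43.7 in KITpos, and Piwil2 (MILI) of 521 ± 73.1 CPM in GFRA1neg, 358 ± 55.3 in GFRA1pos and 266 ± 55.01 in KITpos. Tdrd5 and Mov10l1 remained called without the 4 spermatid-high libraries, where 3 of 27 genes peaked, beside 288 of 15861 tested. Tdrd1 and Piwil2 did not remain called there (adjusted p against GFRA1pos = 0.112 and 0.119). The call of Piwil2 against GFRA1pos was also lost in 5 of the 13 fits with 1 library left out (adjusted p = 0.0535 to 0.0915).

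Chromatin genes moved in both directions. Of 22 DNA methylation genes, 3 peaked and 3 dipped (13.6% each), against 3.66% and 2.51% of all genes tested. Tet3, a dioxygenase that oxidizes 5-methylcytosine, was at 262, 214, 253 and 261 CPM in GFRA1neg, 64.4, 52.4, 77.8 and 51.3 in GFRA1pos and 77.1, 124, 117, 111 and 117 in KITpos, and Dnmt3a, a de novo methyltransferase, was at 298, 187, 315 and 322 CPM in GFRA1neg, 168, 131, 171 and 157 in GFRA1pos and 157, 189, 162, 138 and 168 in KITpos, where the lowest GFRA1neg library overlapped KITpos. The maintenance genes went the other way. Dnmt1 had means of 293 ± 28.6 CPM in GFRA1neg, 550.3 ± 64.3 in GFRA1pos and 401 ± 93.8 in KITpos and its partner Uhrf1 of 109.8 ± 14.6 CPM in GFRA1neg, 238 ± 38.8 in GFRA1pos and 147 ± 15.4 in KITpos, both lower than in GFRA1pos, with differences of -0.91 ± 0.16 and -1.12 ± 0.13. Their differences from KITpos were smaller, and that of Dnmt1 was lost without GFRA1neg replicate 4 (adjusted p = 0.0648) or without KITpos replicate 2 (0.0512), as was that of Uhrf1 without GFRA1neg replicate 4 (0.0511).

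Histone methylation had 6 peaks and 1 dip among 62 genes, and histone acetylation and remodelling had 4 and 0 among 51. Peaks were 9.68% and 7.84% of these lists, against 3.66% of all genes tested. The lists' median differences from the average of both neighbours were 0.205 and 0.264. The medians were 0.097 and 0.033 from GFRA1pos, and 0.45 and 0.48 from KITpos. Ehmt2 (G9a), a histone H3 lysine 9 methyltransferase, was at 248, 213, 238 and 302 CPM in GFRA1neg, 98.2, 89.5, 96.1 and 93.7 in GFRA1pos and 102, 166, 112, 111 and 97.7 in KITpos. Setd7, a lysine methyltransferase, had means of 128 ± 25.99 CPM in GFRA1neg, 43.1 ± 10.4 in GFRA1pos and 12.8 ± 4.15 in KITpos. Hdac11, a deacetylase, had means of 30.7 ± 5.56 CPM in GFRA1neg, 13.2 ± 1.800 in GFRA1pos and 7.66 ± 0.971 in KITpos, and Chd3, a helicase of the NuRD complex, of 143 ± 22.3 CPM in GFRA1neg, 69.9 ± 10.2 in GFRA1pos and 43.5 ± 13.7 in KITpos. Without the spermatid-high libraries, 3 of the 62 and 2 of the 51 peaked, beside 288 of 15861 genes tested.

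Among the lists examined, DNA replication had the highest share of dips. Of 49 listed, 23 dipped (46.9%) and none peaked, against 2.51% and 3.66% of all genes tested. Against the average of both neighbours 38 were lower, beside 12.6% of all genes tested, and the list's median difference was -0.632. Between 16 and 25 dipped when any 1 library was left out, and 20 without the 4 spermatid-high libraries. Most of these dips were small, and 5 were called in edgeR's test against a 1.5-fold threshold. Rrm2, the small subunit of ribonucleotide reductase, was at 12.1, 20.2, 12.6 and 7.897 CPM in GFRA1neg, 43.5, 52.6, 44.7 and 37.6 in GFRA1pos and 66.5, 92.1, 78.2, 82.2 and 80.7 in KITpos. Its differences were -1.75 ± 0.21 from GFRA1pos and -2.59 ± 0.21 from KITpos (adjusted p = 1.44e-05 and 1.42e-08). Prim1, the catalytic primase subunit, was at 24.6, 27.3, 29.2 and 22.9 CPM in GFRA1neg, 85.97, 74.8, 82.4 and 72.6 in GFRA1pos and 64.7, 91.3, 97.8, 105 and 86.8 in KITpos. Mcm6, a subunit of the replicative helicase, was at 144, 134, 157 and 149 CPM in GFRA1neg, 295, 258, 264 and 242 in GFRA1pos and 262, 299.9, 239, 278 and 241 in KITpos, about equal in both neighbours. Mcm3, of the same helicase, had means of 96.6 ± 5.98 CPM in GFRA1neg, 209.8 ± 15.3 in GFRA1pos and 197 ± 52.1 in KITpos, and Tk1, the thymidine kinase of S phase, of 8.34 ± 2.32 CPM in GFRA1neg, 26.3 ± 4.59 in GFRA1pos and 17.6 ± 6.27 in KITpos. Pclaf, which binds the PCNA clamp, was at 3.67, 4.08, 5.31 and 3.16 CPM in GFRA1neg, 24.8, 23.3, 24.8 and 27.5 in GFRA1pos and 7.42, 8.58, 9.08, 9.04 and 20.3 in KITpos, and Dscc1, of the clamp loader for cohesion, had means of 2.67 ± 0.958 CPM in GFRA1neg, 11.8 ± 3.33 in GFRA1pos and 25.6 ± 8.42 in KITpos. Rrm2, Prim1, Pclaf and Dscc1 were chosen among dips without overlap. Of the other genes only Tk1 overlapped, between GFRA1neg and KITpos.

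Of 38 listed mitosis genes, 14 dipped (36.8%) and none peaked, against 2.51% and 3.66% of all genes tested. Against the average 23 were lower, beside 12.6% of all genes tested, and the list's median difference was -0.522. Between 10 and 15 dipped with 1 library left out, and 11 without the spermatid-high libraries. In edgeR's test against a 1.5-fold threshold 2 dipped. Ccnb1, the mitotic cyclin B1, was at 108, 119, 109.5 and 109 CPM in GFRA1neg, 205, 239, 169 and 193 in GFRA1pos and 254, 258, 213, 216 and 224 in KITpos. Cenpa, the centromeric histone, was at 19.9, 25.1, 25.9 and 27.8 CPM in GFRA1neg, 54.9, 56.7, 55.2 and 56.2 in GFRA1pos and 105, 86.97, 64.6, 85.3 and 80.03 in KITpos. Plk1, a mitotic kinase, was at 33.9, 51.2, 32.6 and 42.4 CPM in GFRA1neg, 64.5, 88.03, 67.9 and 86.1 in GFRA1pos and 72.2, 77.2, 103, 56.5 and 60.3 in KITpos, and Ccna2 (cyclin A2) had means of 101 ± 7.01 CPM in GFRA1neg, 203 ± 20.2 in GFRA1pos and 309.9 ± 27.7 in KITpos. The GFRA1neg libraries lay below every neighbour library in each of these 4 genes. Kif23, a kinesin of cytokinesis, was lower than KITpos (-1.61 ± 0.17) but its difference from GFRA1pos, -0.42 ± 0.17, did not pass (adjusted p = 0.112).

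**Figure D3:**
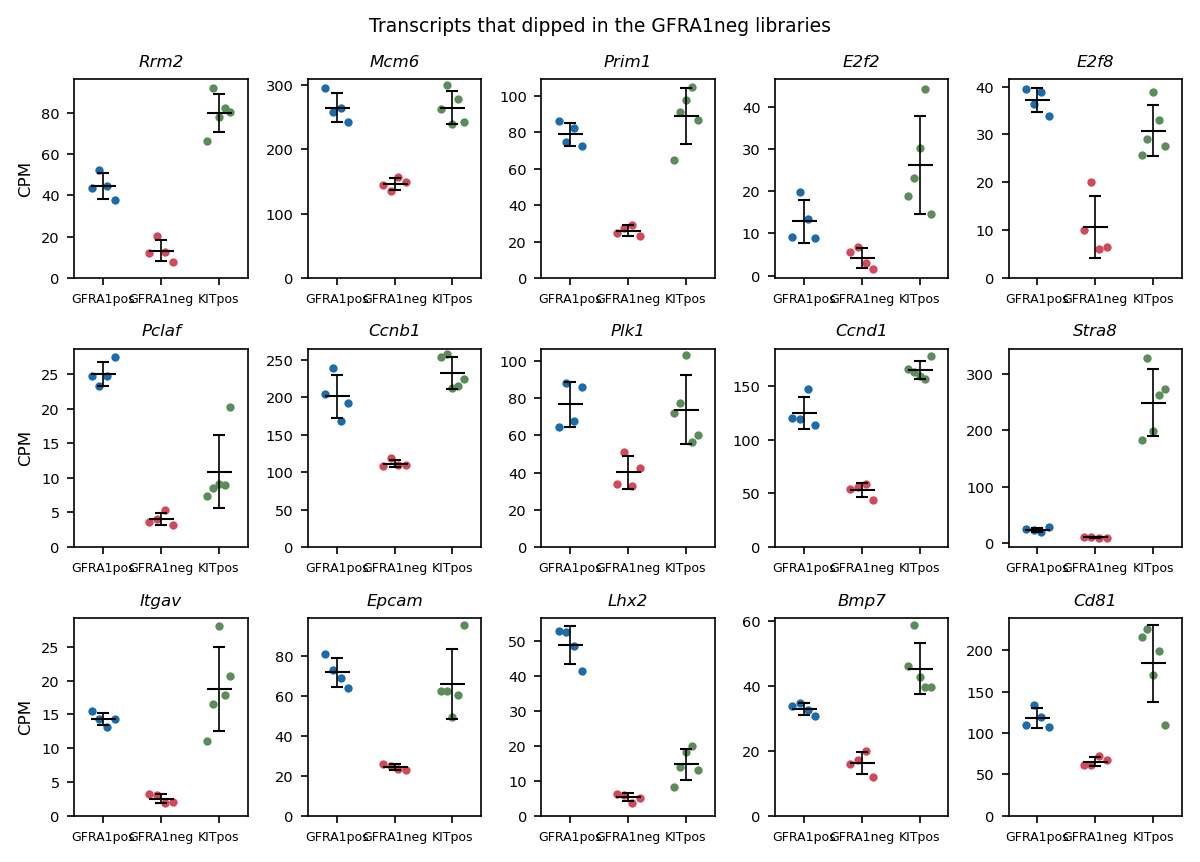
CPM in each library (points) for 15 dip genes in GFRA1pos (blue), GFRA1neg (red) and KITpos (green), with the mean and SD in black. The 4 GFRA1neg libraries lie below every neighbour library in each panel.

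Regulators of G1 and S phase entry moved in both directions. Of 26 cyclins, kinases, inhibitors and E2F genes, 5 dipped (19.2%) and 2 peaked (7.69%), with a median of -0.431. Among all genes tested 2.51% dipped and 3.66% peaked. Ccnd1 (cyclin D1) was at 53.6, 56.3, 58.7 and 43.7 CPM in GFRA1neg, 120.2, 119.7, 147 and 114 in GFRA1pos and 166, 163, 159.8, 156 and 178 in KITpos. Its relative Ccnd2 did not dip: it was at 74.2 CPM, between 349 in GFRA1pos and 47.7 in KITpos, lower than the first and higher than the second. E2f2, an activating E2F, was at 5.55, 6.72, 2.89 and 1.58 CPM in GFRA1neg, 9.14, 19.7, 13.5 and 8.95 in GFRA1pos and 18.8, 23.1, 30.3, 44.3 and 14.6 in KITpos, and E2f8, a repressing one, was at 10.1, 19.99, 6.01 and 6.51 CPM in GFRA1neg, 39.5, 36.4, 38.8 and 33.9 in GFRA1pos and 25.6, 28.99, 38.9, 32.9 and 27.5 in KITpos. All 3 were lowest in GFRA1neg without overlap, for which both E2F genes had been chosen. GFRA1neg replicate 2 held the highest GFRA1neg value of both E2F genes. Ccne2 (cyclin E2) was low in both kit-negative groups and higher in KITpos (22.6 ± 5.87 CPM in GFRA1neg, 16.8 ± 1.62 in GFRA1pos and 129 ± 39.5 in KITpos).

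The 2 peaks of that list were a kinase and an inhibitor. Cdkn1b, which encodes the inhibitor p27, was at 25.8, 15.9, 27.3 and 24.4 CPM in GFRA1neg, 10.02, 9.76, 9.26 and 7.68 in GFRA1pos and 0.5601, 0.348, 0.259, 0 and 1.04 in KITpos, higher by 1.34 ± 0.33 than GFRA1pos, where the call was lost without the spermatid-high libraries (1.37, adjusted p = 0.0595), and by 5.71 ± 0.42 than KITpos. Cdk6, the kinase partner of D cyclins, was at 86.5, 63.7, 70.4 and 76.4 CPM in GFRA1neg, 14.7, 17.8, 16.8 and 15.4 in GFRA1pos and 46.8, 60.8, 52.1, 55.1 and 54.6 in KITpos. It rose mostly at the step from GFRA1pos, by 2.20 ± 0.13, and its excess over KITpos was 0.46 ± 0.12.

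Of 75 histone genes, 9 dipped and none peaked, and 46 were lower than the average of both neighbours, with a median of -0.963. Among all genes tested 2.51% dipped, 3.66% peaked and 12.6% were lower than that average. H2ac15, a replication-dependent H2A gene, was at 57.9, 74.7, 61.6 and 37.2 CPM in GFRA1neg, 154, 148, 199 and 94.4 in GFRA1pos and 301, 189, 139, 364 and 107 in KITpos. Histone genes have near-identical copies, and 2 of the 9, H2ac18 and H2ac19, had the same counts in every library, so the count per gene is uncertain. Between 3 and 25 dipped with 1 library left out, and none in edgeR's test against a 1.5-fold threshold.

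**Figure D4:**
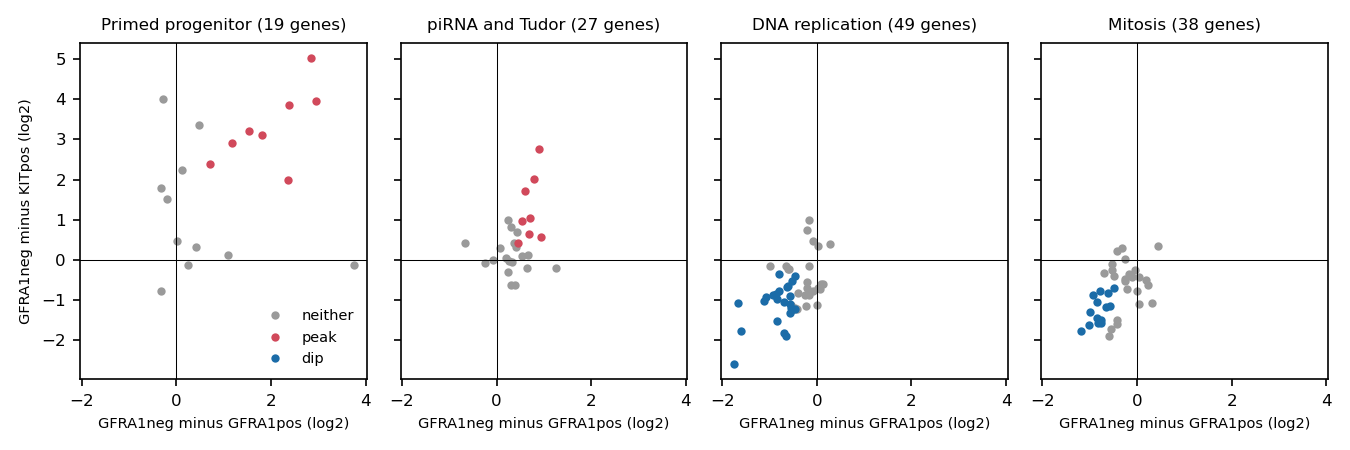
Fitted log2 differences of GFRA1neg from GFRA1pos (horizontal) and from KITpos (vertical) for the members tested of 4 gene lists, with peaks in red, dips in blue and other genes in grey. Peaks of the primed progenitor and piRNA lists lie at the upper right, and dips of DNA replication and mitosis at the lower left.

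Peaks and dips among genes of meiosis and of protein synthesis are given beside the 3.66% and 2.51% of all genes tested. Of all genes, 22.1% were lower than in KITpos, 7.3% lower than in GFRA1pos and 6.84% higher than in GFRA1pos. None of 32 meiotic prophase genes was called a peak or a dip by edgeR; 8 were higher than GFRA1pos and 17 lower than KITpos. Of 86 ribosomal protein genes 1 dipped, while 67 were lower than in KITpos and 1 lower than in GFRA1pos. Mitochondrial ribosomal genes (78, none) and oxidative phosphorylation genes (92, with 3 dips) had 53 and 65 members lower than KITpos, and 1 and 3 lower than GFRA1pos. No oxidative phosphorylation gene dipped without the spermatid-high libraries. Of 31 glycolysis genes, 4 peaked and none dipped, with 2 to 4 peaks when 1 library was left out and 1 against a 1.5-fold threshold. Their median difference was 0.170 from the average of both neighbours, 0.086 from GFRA1pos and 0.465 from KITpos. Pfkfb3, which makes the activator of phosphofructokinase, was at 22.01, 22.7, 24.4 and 23.4 CPM in GFRA1neg, 8.96, 8.98, 7.85 and 7.18 in GFRA1pos and 3.36, 4.41, 4.02, 3.24 and 2.598 in KITpos. Eno1 (enolase) had means of 464 ± 65.7 CPM in GFRA1neg, 225 ± 42.9 in GFRA1pos and 99.4 ± 29.4 in KITpos, and its count may share reads with the near-identical Eno1b.

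Of 18 genes of differentiation, 1 peaked (Dnmt3a, above) and 2 dipped, or 5.56% and 11.1%, against 3.66% and 2.51% of all genes tested. Stra8, the retinoic acid target that precedes meiosis, was at 10.3, 10.96, 9.47 and 8.88 CPM in GFRA1neg, 24.2, 22.4, 19.5 and 27.4 in GFRA1pos and 182, 329, 198, 262 and 272 in KITpos. It was therefore lowest in the middle, with differences of -1.24 ± 0.23 from GFRA1pos (adjusted p = 9.81e-04) and -4.64 ± 0.24 from KITpos, while Rarg was highest there. Of 19 genes of the retinoic acid pathway, Rarg alone peaked and none dipped. Among 22 stem-cell-associated genes 17 were lower than in GFRA1pos and 13 higher than in KITpos, with 1 peak and 1 dip. Of all genes tested, 7.3% were lower than in GFRA1pos and 23% higher than in KITpos. Mcam, an adhesion molecule of the immunoglobulin family, was lower than in GFRA1pos (-2.18 ± 0.16) and its difference from KITpos did not pass (0.22 ± 0.15, adjusted p = 0.232). Without KITpos replicate 2 that Mcam difference was 0.37 and passed (adjusted p = 0.0185).

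Counts in signalling pathways are given beside the 3.66% of peaks and 2.51% of dips among all genes tested. Each list held few calls, so what follows describes single genes. In the Hedgehog pathway, 1 of 16 genes peaked (6.25%). Ptch1, the Hedgehog receptor and itself a target of the pathway, was at 348, 245, 310.2 and 347 CPM in GFRA1neg, 87.6, 63.05, 89.3 and 59.7 in GFRA1pos and 2.24, 6.15, 4.93, 1.36 and 2.598 in KITpos, 4.17-fold over GFRA1pos and 86.8-fold over KITpos. Smo, its signal transducer, was at 50.4 ± 5.42 CPM in GFRA1neg, 30.1 ± 4.07 in GFRA1pos and 51.99 ± 9.55 in KITpos and was called only against GFRA1pos (0.75 ± 0.17), a call lost without the spermatid-high libraries (adjusted p = 0.0793). In the Wnt pathway 2 of 34 peaked (5.88%) and 1 dipped (2.94%). Lef1, a nuclear partner of beta-catenin, was at 30.6, 49.4, 35.1 and 38.4 CPM in GFRA1neg, 11.1, 12.9, 18.4 and 17.2 in GFRA1pos and 16.9, 11.9, 26.5, 10.4 and 15.9 in KITpos, and Dkk3, a secreted Dickkopf protein, had means of 70.5 ± 11.2 CPM in GFRA1neg, 25.3 ± 2.499 in GFRA1pos and 2.96 ± 0.821 in KITpos.

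The TGF-beta, BMP and activin list had 2 peaks (6.45%) and 1 dip (3.23%) among 31 genes, against 3.66% and 2.51% of all genes tested. Smad3, a signal transducer, had means of 87.5 ± 14.9 CPM in GFRA1neg, 44.8 ± 7.69 in GFRA1pos and 15.3 ± 5.57 in KITpos, and Bmp7, a ligand, was at 15.99, 17.1, 19.99 and 11.8 CPM in GFRA1neg, 33.9, 34.7, 32.6 and 30.7 in GFRA1pos and 46.1, 58.8, 42.8, 39.6 and 39.7 in KITpos. Of 14 chemokine and homing genes, 2 peaked and 2 dipped: beside Cxcl12, Cmklr1, the chemerin receptor, was at 48.3, 47.2, 44.3 and 57.6 CPM in GFRA1neg, 5.41, 6.73, 5.03 and 11.99 in GFRA1pos and 5.74, 3.59, 5.71, 2.05 and 3.29 in KITpos. Of 25 interferon and antigen presentation genes, 4 peaked (16.0%) and none dipped. Their median difference was 1.104 from the average of both neighbours, 0.256 from GFRA1pos and 1.568 from KITpos. Oasl2, an interferon-induced gene, was at 158, 144, 224 and 244 CPM in GFRA1neg, 47.8, 40.9, 60.5 and 43.4 in GFRA1pos and 5.04, 18.9, 9.47, 4.95 and 4.68 in KITpos, and Psmb10, a catalytic subunit of the immunoproteasome, had means of 50.4 ± 14.6 CPM in GFRA1neg, 18.3 ± 3.49 in GFRA1pos and 15.4 ± 5.600 in KITpos. Gbp2, a guanylate-binding protein, was at 35.6, 14.6, 32.8 and 40.2 CPM in GFRA1neg, 9.05, 6.15, 10.3 and 8.44 in GFRA1pos and 0, 0.5798, 0.1297, 0 and 0 in KITpos, with 3 KITpos libraries at 0. These 3 genes did not overlap between GFRA1neg and either neighbour. Irf1, the interferon regulatory factor, was at 84.1 ± 19.7 CPM in GFRA1neg, 51.5 ± 2.09 in GFRA1pos and 14.5 ± 7.304 in KITpos and passed against KITpos but not against GFRA1pos (0.71 ± 0.27, adjusted p = 0.0945). That Irf1 difference passed with the replicate block (0.69, adjusted p = 0.041), with limma voom (0.67, adjusted p = 0.0292) and without KITpos replicate 5 (0.71, adjusted p = 0.0345).

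Of 171 adhesion genes, 8 peaked and 8 dipped (4.68% each), against 3.66% and 2.51% of all genes tested. Leaving out the spermatid-high libraries gave 7 peaks and 5 dips. Itgav, the integrin alpha-V chain, was the largest dip of at least 10 CPM, at 3.198, 3.12, 1.85 and 2.07 CPM in GFRA1neg, 15.4, 14.2, 13.2 and 14.3 in GFRA1pos and 11.1, 16.5, 28.01, 17.9 and 20.6 in KITpos. Its differences were -2.46 ± 0.27 from GFRA1pos and -2.86 ± 0.26 from KITpos. It led the dips chosen for having no overlap, of which Epcam was another. Epcam, an epithelial adhesion molecule also found on spermatogonia, was at 25.96, 25.03, 23.2 and 23.1 CPM in GFRA1neg, 81.2, 73.2, 69.04 and 64.01 in GFRA1pos and 62.3, 62.5, 49.3, 60.4 and 95.6 in KITpos. The tetraspanins Cd81 and Cd63 had means of 65.7 ± 5.27 CPM in GFRA1neg, 118 ± 11.9 in GFRA1pos and 184 ± 46.7 in KITpos, and of 8.84 ± 1.97 CPM in GFRA1neg, 18.7 ± 3.06 in GFRA1pos and 109.7 ± 28.8 in KITpos. Rgma, a guidance molecule and BMP co-receptor, peaked at 46.6, 39.7, 61.7 and 54.1 CPM in GFRA1neg, 9.23, 6.15, 8.05 and 6.76 in GFRA1pos and 6.16, 11.2, 8.17, 6.48 and 5.37 in KITpos, as did Sema6d, a semaphorin (161 ± 23.7 CPM in GFRA1neg, 93.1 ± 16.5 in GFRA1pos and 62.9 ± 10.8 in KITpos). Of 61 axon guidance genes, 6 peaked and 2 dipped, and 2 and 0 without the spermatid-high libraries.

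Other large dips had varied roles. Lhx2, Rasgrp2, Trap1a, Nav1, Syngr2, Tmem59l and Hid1 were chosen among dips without overlap between GFRA1neg and either neighbour. Lhx2, a LIM-homeobox factor, was at 6.303, 6.08, 3.81 and 5.03 CPM in GFRA1neg, 52.9, 52.6, 48.5 and 41.5 in GFRA1pos and 8.401, 13.9, 18.2, 19.96 and 13.2 in KITpos, highest by far in GFRA1pos. Rasgrp2, an exchange factor for Rap GTPases, had means of 3.64 ± 1.03 CPM in GFRA1neg, 23.9 ± 2.43 in GFRA1pos and 11.3 ± 2.47 in KITpos. Trap1a, an X-linked tumour antigen gene, was at 19.5, 13.8, 17.3 and 17.9 CPM in GFRA1neg, 56.96, 50.7, 46.8 and 48.3 in GFRA1pos and 40.7, 52.9, 45.00, 52.5 and 60.3 in KITpos, almost level in both neighbours. Nav1, Syngr2, Tmem59l and Hid1, of which Nav1 binds microtubules and Syngr2 is a vesicle protein, had GFRA1neg means of 8.38, 4.39, 4.89 and 3.91 CPM. Of 21 circadian genes, 3 dipped (14.3%) and 2 peaked (9.52%), against 2.51% and 3.66% of all genes tested. These counts were 3 and 0 without the spermatid-high libraries. Bhlhe40, a clock repressor, was at 0.564, 0.6398, 0.924 and 0.494 CPM in GFRA1neg, 5.32, 7.61, 4.93 and 3.29 in GFRA1pos and 8.82, 11.4, 4.41, 6.14 and 6.93 in KITpos, and Hlf, a PAR-bZIP factor, had means of 15.6 ± 2.07 CPM in GFRA1neg, 73.1 ± 9.91 in GFRA1pos and 26.9 ± 6.06 in KITpos.

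Of 165 ion channel genes 10 peaked (6.06%) and 2 dipped (1.21%), and of 277 solute carriers 16 peaked (5.78%) and 1 dipped (0.361%), against 3.66% and 2.51% of all genes tested. Without the spermatid-high libraries these were 4 and 1, and 6 and 2, beside 288 peaks and 248 dips among 15861 genes tested. Cacnb3, a calcium channel subunit, had means of 28.2 ± 5.02 CPM in GFRA1neg, 6.73 ± 3.52 in GFRA1pos and 9.09 ± 3.55 in KITpos, and Kcnh2, the hERG potassium channel, dipped at 1.501 ± 0.859 CPM in GFRA1neg, 7.95 ± 1.701 in GFRA1pos and 6.82 ± 2.003 in KITpos. Slc24a3, an exchanger of sodium, calcium and potassium, had means of 11.4 ± 2.65 CPM in GFRA1neg, 1.37 ± 1.09 in GFRA1pos and 2.03 ± 1.31 in KITpos, and Slc4a4, a bicarbonate cotransporter, of 9.09 ± 3.33 CPM in GFRA1neg, 2.28 ± 0.932 in GFRA1pos and 2.27 ± 0.851 in KITpos. Among 29 imprinted genes, 3 peaked and 2 dipped. Peg10, a paternally expressed gene derived from a retrotransposon, was at 64.2, 62.1, 62.7 and 68.9 CPM in GFRA1neg, 23.5, 17.2, 22.2 and 15.9 in GFRA1pos and 7.56, 8.12, 11.7, 9.21 and 12.6 in KITpos, and Phlda2, a maternally expressed gene known from the placenta, had means of 14.97 ± 5.21 CPM in GFRA1neg, 2.14 ± 0.974 in GFRA1pos and 3.402 ± 1.54 in KITpos.

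A few stress and catabolic genes peaked, in 2 lists whose shares of peaks were 6.67% and 7.69%, against 3.66% of all genes tested. Their shares of dips were 3.33% and 2.56%, against 2.51%. Of 30 immediate early and heat shock genes, 2 peaked, Hspa1a and its near-identical copy Hspa1b, between which reads cannot be divided with certainty. Hspa1a was at 31.04, 22.5, 37.4 and 32.4 CPM in GFRA1neg, 5.15, 7.61, 6.24 and 5.15 in GFRA1pos and 3.92, 4.52, 3.11, 2.56 and 0.346 in KITpos. Fos, of the same list, dipped (1.35 ± 0.249 CPM in GFRA1neg, 9.34 ± 1.57 in GFRA1pos and 2.99 ± 0.9800 in KITpos), so the list did not move one way. Of 39 autophagy and lysosome genes 3 peaked and 1 dipped, and Wipi1, which binds phosphoinositides on forming autophagosomes, had means of 47.8 ± 9.98 CPM in GFRA1neg, 19.2 ± 1.45 in GFRA1pos and 6.17 ± 2.12 in KITpos. Of those 39 genes, 1 peaked and none dipped without the spermatid-high libraries.

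**Figure D5:**
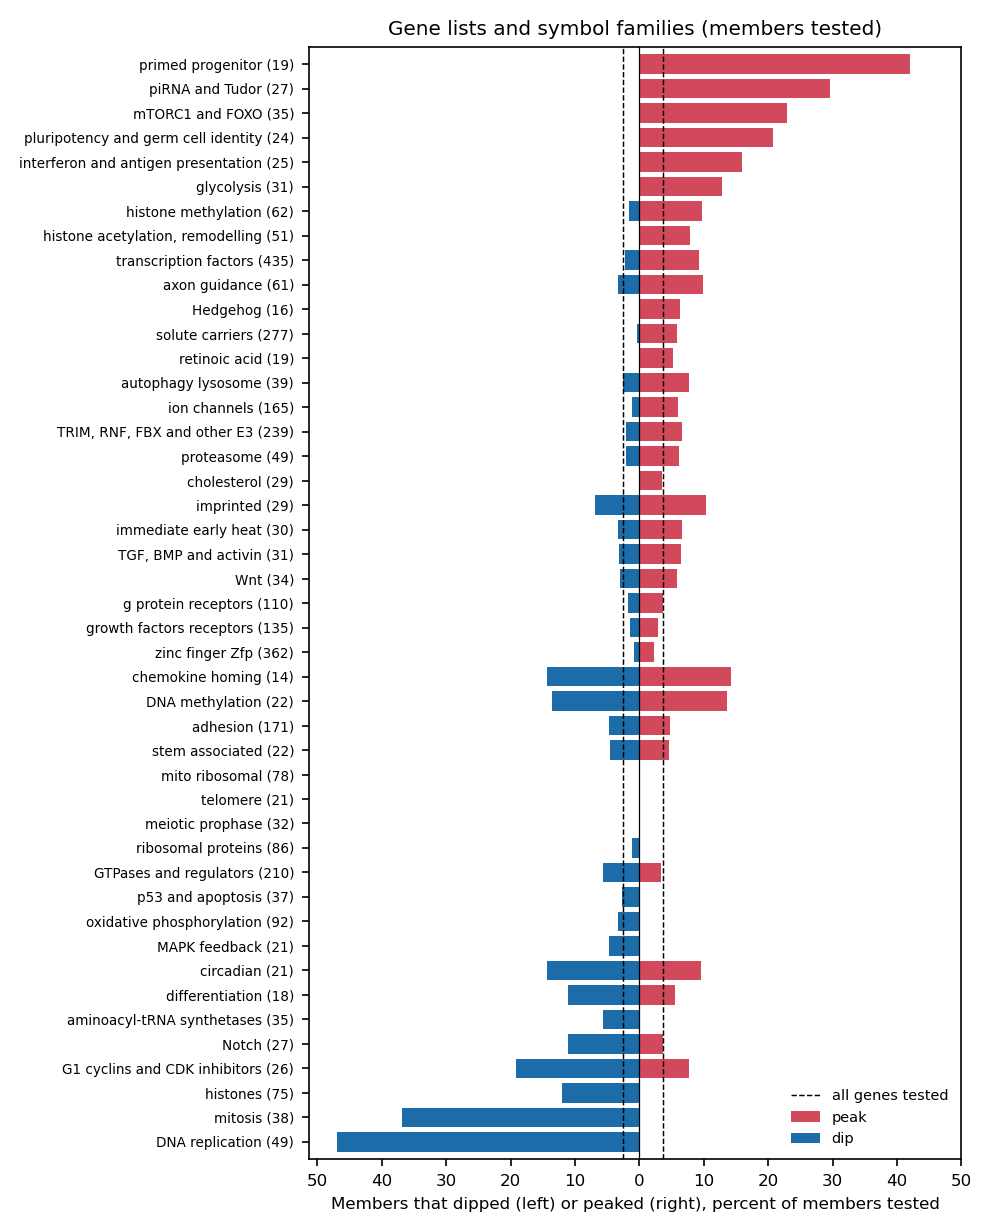
Percent of tested members that peaked (right, red) or dipped (left, blue) in GFRA1neg, for each list or symbol family of 10 or more genes, with the number tested in parentheses. Dashed lines mark the share of all genes tested (3.66% peaks, 2.51% dips), and the DNA replication, mitosis and primed progenitor lists reach farthest from them.

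Some peaks are also markers of somatic cells. Counts of markers are given beside the 3.66% of peaks and 2.51% of dips among all genes tested. Of all genes, 23% were higher and 22.1% lower than in KITpos. The shares against GFRA1pos were 6.84% higher and 7.3% lower. Of 14 Sertoli markers, Gata4 peaked (8.97 ± 2.28 CPM in GFRA1neg, 2.69 ± 0.883 in GFRA1pos and 4.57 ± 2.23 in KITpos), a call against KITpos lost in 7 of the 13 fits with 1 library left out (adjusted p = 0.0575 to 0.104), and their summed level was 109 to 158 CPM in GFRA1neg, 191 to 221 in GFRA1pos and 91.2 to 152 in KITpos. Ctsl and Trf held most of that sum in GFRA1neg, at 78.5 and 24.1 CPM, followed by Wt1, whose means were 9.66 ± 2.38 CPM in GFRA1neg, 2.46 ± 0.629 in GFRA1pos and 5.24 ± 3.92 in KITpos. The mean of 5 of the 14 was under 1 CPM, and the markers Amh and Sox9 were at 0.206 and 1.78 CPM. Of 10 myoid and fibroblast markers, Col1a1 peaked at 16.9, 16.1, 17.9 and 19.4 CPM in GFRA1neg, 4.79, 2.83, 3.22 and 3.55 in GFRA1pos and 1.12, 1.04, 4.15, 2.56 and 0.5197 in KITpos, and the summed level was 32.6 to 37.1 CPM in GFRA1neg, 26.1 to 35.8 in GFRA1pos and 18.1 to 34.1 in KITpos. Beside Col1a1, the highest in GFRA1neg were Pdgfra at 7.597, Tagln at 4.897 and Myh11 at 3.11 CPM, and the other 6, which include Acta2, Dcn, Col1a2 and Col3a1, had means under 1 CPM. The part of such cells in the peaks of Gata4 and Col1a1 was not tested. None of 10 Leydig or 6 endothelial markers was called a peak or dip by edgeR. Of the Leydig markers, 8 were lower than in KITpos, where their sum was 45.5 to 178 CPM, against 33.1 to 55.1 in GFRA1neg. Of the endothelial markers, 4 were higher than in KITpos and 2 lower than in GFRA1pos. Their sum was 29.3 to 37.5 CPM in GFRA1neg, 37.4 to 43.5 in GFRA1pos and 7.97 to 13.2 in KITpos. Of 5 leukocyte markers 1 dipped and none peaked. Of 14 spermatocyte markers, Tesmin peaked (71.98 ± 31.7 CPM in GFRA1neg, 14.2 ± 4.61 in GFRA1pos and 27.96 ± 8.296 in KITpos), and none of 16 spermatid markers was called in any of the 3 tests.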

How the data were processed

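Per the labels' protocols, cells were sorted into Trizol, their RNA amplified (NuGEN Ovation V2) and TruSeq V2 libraries sequenced in paired-end mode. The authors deposited whole-number counts per Entrez gene, not normalized. The submitters' processing notes name mm9, Trim Galore, TopHat2 2.0.4, Bowtie2 2.0.0-6, Bowtie, DESeq and DESeq2. How genes were counted, with which annotation and strand setting, is not given in the sources used here, so a gene and its antisense or overlapping partner cannot be told apart. A column spelled with GFP in place of GFR was read as GFRA1pos replicate 1, the one title left for it, and GFRA1pos values rest on that reading.

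Symbols from a RefSeq gene table (GRCm38.p6, names only) matched 23930 of 24013 rows. One row without a symbol took 26.7% of counts in GFRA1pos, 27.3% in GFRA1neg and 20.8% in KITpos. Replicate libraries differed beyond counting error (chi-square per degree of freedom 7.33 to 46.5 over 22 adult pairs). The main test was the quasi-likelihood F-test of edgeR 4.0.16 (R 4.3.3), fitted to 17 libraries with a mean for each group after TMM scaling and filterByExpr, with a common biological coefficient of variation 0.30. CPM used TMM-scaled totals. Floors of 3 counts over a group were 0.0693 to 0.0854 CPM and cover counting error only. Scripts were tested on simulated counts. Alternatives used DESeq2 1.42.0, limma 3.58.1, other scalings and filters, a fold threshold of 1.5, the 13 adult libraries alone, and each library left out.

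The members, markers and lists (29 pathway lists, 8 marker lists and 16 symbol families) were chosen with earlier results of these data known. Genes named were the sort and marker genes, the 15 largest peaks and 15 largest dips of at least 10 CPM without overlap, and per list up to 4 peaks, 4 dips and 3 others of at least 5 CPM. Sox3, Lin28a, Foxo1, Tdrd1, Piwil2, Mcm6, Ccnb1, Hoxb3, Fos and the somatic markers Amh, Sox9, Wt1, Acta2, Dcn, Col1a2, Col3a1, Pdgfra, Tagln and Myh11 were named outside that rule, after their values were seen. Promoters came from a RefSeq table (first window listed per gene). Some results are not reported here.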

Additional observations from a re-analysis of the deposited data

Results flagged for a closer look

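In groups of 4 or 5 libraries, a library was singled out where its gap to the next value, as a share of the group's whole range, was above Dixon's critical value (0.829 for 4, 0.71 for 5). Chance gives about 1 in 20. Over 120 genes in 3 groups, 18 of 360 sets were singled out (5%), KITpos replicates 2 and 5 in 4 sets each.

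In GFRA1neg, replicate 2 was low in Rarg (31.3 CPM against 47.1 to 49.3, gap share 0.881) and high in Lrp5, a Wnt co-receptor that dipped (24.1 against 11.7 to 13.1, 0.887). Replicate 4 was high in Scn10a (26.1 against 15.3 to 16.4, 0.895) and low in Ccne2 (13.8 against 24.7 to 26.3, 0.873). Replicate 1 was low in the calcium channel gene Cacna1h (92.0 against 121.9 to 126.9, 0.856), which peaked.

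In GFRA1pos, replicate 2 was low in Igfbp6 (1.07 against 2.93 to 3.21, 0.868) and in Tdrd5 (85.0 against 97.9 to 98.6, 0.947), and replicate 3 was high in Smo (36.1 against 27.7 to 28.6, 0.897).

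In KITpos, replicate 5 was high in Esr1 (2.77 against 0 to 0.232, 0.916), Epcam (95.6 against 49.3 to 62.5, 0.715), Pclaf (20.3 against 7.42 to 9.08, 0.871) and the growth factor gene Pdgfa (62.0 against 33.2 to 37.8, 0.84). Replicate 2 was high in Upp1 (14.1 against 2.39 to 4.50, 0.82), Gbp2 (0.580 against 0 to 0.130, 0.776), Ehmt2 (166 against 97.7 to 112, 0.793) and the Polycomb gene Cbx2 (143 against 98.1 to 106, 0.829). Replicate 1 was low in Tet3 (77.1 against 111 to 124, 0.724) and replicate 3 high in Cacna1h (68.1 against 39.5 to 46.0, 0.771). Apart from Ccne2 and Smo, which neither peaked nor dipped, each of these genes kept its call with any 1 library left out.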

How the results depend on the processing

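With each library left out in turn, the contrast called 1768 to 2455 genes higher and 1510 to 2198 lower, GFRA1neg over GFRA1pos 705 to 1207 and under it 839 to 1276, over KITpos 3173 to 3644 and under it 3037 to 3796, with 381 to 624 peaks, 275 to 422 dips, 197 to 284 stronger peaks and 77 to 135 stronger dips, each lowest without GFRA1neg replicate 4, except over and under GFRA1pos, lowest without GFRA1pos replicates 2 and 3. Of the 102 peak and dip genes described, 98 kept their call in all 13 of these fits; Dnmt1, Uhrf1, Gata4 and Piwil2 did not. A test against a 1.5-fold threshold left 702 higher and 350 lower in the contrast, 238 over and 382 under GFRA1pos, 1890 over and 1558 under KITpos, 155 peaks, 58 dips, 153 stronger peaks and 55 stronger dips, and 32 of the 102 lost a call. Limma voom with sample weights called 1802 genes over GFRA1pos and 943 peaks. Adjusting the larger of both one-sided neighbour p-values gave 355 peaks and 159 dips. Without the 4 libraries high in spermatid transcripts, an alternative chosen after seeing the data, 515 genes were called over GFRA1pos, with 288 peaks and 248 dips; the cause was not tested, and fewer libraries were fitted. Under these alternatives no described gene changed direction in a test it had passed. Scaling by DESeq2's size factors or upper quartiles kept 535 and 557 of the 565 peaks.

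The labels do not say whether equal replicate numbers share a sort. Deviations of same-numbered GFRA1pos and GFRA1neg libraries correlated at 0.436, 0.49, 0.293 and 0.0652, while GFRA1pos replicate 4 correlated best with GFRA1neg replicate 2 (0.529), and all 8 same-numbered pairs with KITpos were below 0 (-0.419 to -0.0358). The block was therefore kept as an alternative. With the replicate block, the contrast called 2447 higher and 2077 lower, with 1292 over and 1292 under GFRA1pos, 3507 over and 3351 under KITpos, 644 peaks, 447 dips, 280 stronger peaks and 117 stronger dips.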

Other observations

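The neonatal gonocytes entered no comparison above. Cxcl12, low in both adult neighbours, was at 23.7, 13.8, 30.5 and 21.2 CPM in the 4 gonocyte libraries, and Six4 was at 57.9, 31.02, 68.00 and 54.8. Neurog3 was at 9.16, 7.33, 9.52 and 5.63 and Scn10a at 1.94, 2.16, 1.35 and 1.51, below GFRA1neg in every library. Slc4a4, a peak among adults, was at 14.2, 8.54, 14.8 and 11.1. Among dips, Mcm6 was at 365, 400.2, 345 and 359 and Prim1 at 96.8, 135, 89.01 and 104, and Nav1 at 62.9, 52.8, 79.8 and 60.2.

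Further genes changed at the middle stage. Psmd7, a subunit of the proteasome's regulatory particle, had means of 189 ± 33.2 CPM in GFRA1neg, 119 ± 11.1 in GFRA1pos and 44.6 ± 4.69 in KITpos. Rac1, a small GTPase of migration, dipped with means of 135 ± 22.5 CPM in GFRA1neg, 209 ± 20.01 in GFRA1pos and 240.3 ± 36.3 in KITpos. Of 27 Notch pathway genes, 3 dipped (11.1%) and 1 peaked (3.7%), against 2.51% and 3.66% of all genes tested. Notch4, a dip, had means of 2.45 ± 0.495 CPM in GFRA1neg, 6.56 ± 1.12 in GFRA1pos and 5.06 ± 1.21 in KITpos. Lrp5 dipped with means of 15.3 ± 5.88 CPM in GFRA1neg, 32.2 ± 4.36 in GFRA1pos and 39.9 ± 9.08 in KITpos and Pdgfa with 14.7 ± 2.06 CPM in GFRA1neg, 28.1 ± 3.05 in GFRA1pos and 40.97 ± 11.9 in KITpos.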
